A study of Homo sapiens with 2 samples.

Results

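Bidirectional promoters of protein-coding genes, short stretches of DNA that carry the start sites of 2 coding genes facing away from each other, were examined in ATAC-seq peaks of G401 cells. A pair was taken where a gene on the minus strand and a gene on the plus strand lay head to head on chromosomes 1 to 22 with their transcription start sites (TSSs) at most 1000 bp apart, with 1 start site per gene from GENCODE release 44 on the hg19 build. This gave 952 pairs, made of 1834 of the 19229 coding genes on these chromosomes. The window searched at each pair ran from 500 bp before the first start site to 500 bp past the second. In the control library 894 of 111987 peaks on chromosomes 1 to 22 fell in these windows (0.798%), and in the treated library 929 of 158856 (0.585%). Windows of neighbouring pairs overlapped in places, so the pairs made up 883 separate loci, and 69 genes belonged to more than 1 pair.

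G401 cells come from a malignant rhabdoid kidney tumor and are deficient in SMARCB1, a core subunit of the SWI/SNF chromatin remodeler. The cells were treated for 3 days with DMSO, the solvent control, or with MAK683 at 3 µM, an inhibitor of Polycomb Repressive Complex 2 (PRC2), the histone methyltransferase of H3K27, that acts through its EED subunit. ATAC-seq, where accessible DNA is cut by Tn5 transposase, was done on 1 library per treatment. No comparison between the treatments has a replicate check, and every interval given covers counting error or the spread over promoters, not the spread between cultures. For the deficient gene itself, no peak lay at the SMARCB1 promoter or in the SMARCB1 transcript in either library. The DMSO library held 16598348 tags after duplicates were removed and 114506 peaks, and the MAK683 library 18265284 tags and 161684 peaks.

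Head-to-head pairs share the nucleosome-depleted region from which RNA polymerase II starts in both directions. Such promoters usually lie in CpG islands, lack a TATA box and serve housekeeping genes, many of them in DNA repair, the cell cycle and mitochondria. PRC2 by contrast silences CpG island promoters of developmental genes, and few housekeeping promoters carry its mark.

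The start sites of the 952 pairs lay 11 to 1000 bp apart with a median of 233 bp, and 606 pairs (63.7%) were within 300 bp. Sequence from between the start sites is shown for the pairs on which the comparison of treatments turns. Each is an exon-free stretch of at most 300 bp, read from the GRCh37 genome, and need not run the whole way between the start sites. Capitals mark matches, on either strand, to 9 motifs: the ETS motif CCGGAAG, the NF-Y motif CCAAT, the GC box GGGCGG (SP factors), the NRF1 core GCGCATGCG, the YY1 motif AAGATGGCG, the ZNF143 core ACTACAATT, the cyclic AMP element TGACGTCA, the TATA box TATAAA and the AP-1 motif TGANTCA. A match on the minus strand appears as its reverse complement, for example ATTGG for CCAAT. The first set holds pairs whose peaks were higher after MAK683, the collagen IV pairs among them.
COL4A1/COL4A2, chr13:110959505-110959604, plus strand: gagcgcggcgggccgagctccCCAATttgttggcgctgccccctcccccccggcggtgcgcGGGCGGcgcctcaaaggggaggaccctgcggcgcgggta
COL4A4/COL4A3, chr2:228028922-228029111, plus strand: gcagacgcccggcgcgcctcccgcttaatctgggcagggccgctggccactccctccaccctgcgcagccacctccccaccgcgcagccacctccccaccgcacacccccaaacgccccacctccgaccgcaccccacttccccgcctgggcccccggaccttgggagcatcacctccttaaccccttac
CCDC122/LACC1, chr13:44453877-44454039, plus strand: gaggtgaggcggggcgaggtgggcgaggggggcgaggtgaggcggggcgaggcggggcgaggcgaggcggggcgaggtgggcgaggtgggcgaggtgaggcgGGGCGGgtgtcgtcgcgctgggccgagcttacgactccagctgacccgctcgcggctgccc
CNGA1/NIPAL1, chr4:48018699-48018788, plus strand: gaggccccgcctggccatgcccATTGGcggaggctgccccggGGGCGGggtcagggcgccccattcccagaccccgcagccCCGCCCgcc
SEPTIN10/SOWAHC, chr2:110371721-110371940, plus strand: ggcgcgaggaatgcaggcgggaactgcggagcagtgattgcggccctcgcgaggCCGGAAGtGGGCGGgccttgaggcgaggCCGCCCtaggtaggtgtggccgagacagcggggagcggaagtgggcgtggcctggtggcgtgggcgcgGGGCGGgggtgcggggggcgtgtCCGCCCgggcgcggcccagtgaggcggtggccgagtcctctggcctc
The GC box appeared in 4 of these 5 stretches and CCAAT in 2. SEPTIN10/SOWAHC also held an ETS match next to a GC box. The stretch of COL4A4/COL4A3 held no match to any of the 9 motifs, but a GC box lay elsewhere in the 300 bp centred on that pair.

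The second set holds the 4 of the 6 pairs with the largest falls that have an exon-free stretch of at least 20 bp between their start sites.
EXD3/NOXA1, chr9:140317664-140317801, plus strand: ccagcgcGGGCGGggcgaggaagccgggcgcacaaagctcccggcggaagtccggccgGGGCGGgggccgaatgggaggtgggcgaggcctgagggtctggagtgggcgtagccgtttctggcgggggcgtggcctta
RPL4/ZWILCH, chr15:66797194-66797296, plus strand: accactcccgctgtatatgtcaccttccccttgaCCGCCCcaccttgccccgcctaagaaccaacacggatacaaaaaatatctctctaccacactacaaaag
RECQL5/SAP30BP, chr17:73663270-73663330, plus strand: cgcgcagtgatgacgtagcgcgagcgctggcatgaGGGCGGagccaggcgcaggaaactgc
ZMYND12/PPCS, chr1:42922171-42922209, plus strand: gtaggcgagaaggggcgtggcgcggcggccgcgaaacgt
Of these 4 stretches 3 held a GC box, and that of ZMYND12/PPCS held no match to any motif.

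The third set shows pairs of DNA repair, translation, mitosis and histone genes and was chosen to show repeated motifs.
ZAR1L/BRCA2, chr13:32889501-32889641, plus strand: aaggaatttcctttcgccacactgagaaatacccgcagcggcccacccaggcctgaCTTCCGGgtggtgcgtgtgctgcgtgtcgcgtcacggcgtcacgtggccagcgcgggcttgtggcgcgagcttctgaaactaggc
SARS2/MRPS12, chr19:39421404-39421583, plus strand: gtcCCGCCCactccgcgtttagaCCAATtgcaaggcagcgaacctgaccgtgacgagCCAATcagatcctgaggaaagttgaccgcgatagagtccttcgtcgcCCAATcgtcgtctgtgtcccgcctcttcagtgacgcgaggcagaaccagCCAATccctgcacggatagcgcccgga
SKA2/PRR11, chr17:57232708-57233007, plus strand: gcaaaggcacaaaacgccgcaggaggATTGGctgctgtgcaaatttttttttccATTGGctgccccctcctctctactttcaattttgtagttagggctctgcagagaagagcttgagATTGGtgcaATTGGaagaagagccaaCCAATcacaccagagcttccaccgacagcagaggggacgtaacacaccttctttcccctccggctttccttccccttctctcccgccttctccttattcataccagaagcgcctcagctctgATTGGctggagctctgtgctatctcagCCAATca
H2BC13/H2AC13, chr6:27775708-27775950, plus strand: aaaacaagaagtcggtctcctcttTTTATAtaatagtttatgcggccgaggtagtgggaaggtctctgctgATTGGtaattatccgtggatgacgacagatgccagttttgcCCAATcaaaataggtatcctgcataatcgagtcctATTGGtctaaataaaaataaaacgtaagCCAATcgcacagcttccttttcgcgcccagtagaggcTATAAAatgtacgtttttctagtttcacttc
The SKA2/PRR11 stretch held 7 CCAAT matches, SARS2/MRPS12 and the histone pair H2BC13/H2AC13 held 4 each, and ZAR1L/BRCA2 held 1 ETS match. The histone pair also held 2 TATA boxes, 1 facing each gene, whereas the other stretches of this set held none.

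Across all pairs these letters were counted in 300 bp centred on each pair, and in 300 bp around the start of every other coding gene (250 bp before and 50 bp after). Over all 18337 coding promoters the ETS motif was found in 13.2%, CCAAT in 35.5%, the GC box in 60.7%, the NRF1 core in 2.60%, the YY1 motif in 2.61%, the ZNF143 core in 0.420%, the cyclic AMP element in 2.62%, the TATA box in 10.1% and the AP-1 motif in 5.49%. The pairs were compared with 1987 unpaired coding promoters that have a divergent noncoding gene within 1000 bp, and with 15398 that have no divergent gene. The ETS motif was present at 295 of 952 pairs (31.0%, 95% Wilson interval 28.1 to 34.0%), at 20.2% of promoters with a noncoding partner and at 11.2% of those without a partner. The GC box was found at 73.0% of pairs, 75.7% of promoters with a noncoding partner and 58.0% of those without. The TATA box went the other way, at 4.31% of pairs against 11.2% of promoters without a partner, and so did the AP-1 motif, at 20 of the 952 pairs against 6.14%. Promoters with a noncoding partner were like the pairs here, with 4.78% for the TATA box and 2.06% for AP-1. The rarer ZNF143 core was found at 12 pairs (1.26%), against 0.252% and 0.390% in the other sets. The pairs had a median GC content of 64.0% and a median CpG observed/expected ratio of 0.880, a measure of how far CpG has escaped loss, and 870 of them (91.4%) reached 0.6. In the set with a noncoding partner 91.3% reached this ratio, and in the set without a partner 61.3%. In a pair the window takes in sequence upstream of both genes, so motif shares per gene are not strictly alike between the sets. At pairs with start sites more than 300 bp apart the window ends short of both start sites. A TATA box close to a start site can be missed there, so the lower TATA share of the pairs is not strictly comparable.

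Nearly every bidirectional promoter was accessible in both libraries. A peak was called at 929 of 952 pairs in DMSO (97.6%, 95% Wilson interval 96.4 to 98.4%) and at 928 in MAK683 (97.5%, 96.3 to 98.3%). Among promoters with a noncoding partner the shares were 87.1% and 90.4%, and among promoters without a partner 63.0% and 68.1%. Peaks found in MAK683 alone made up 0.420% of the pairs, 4.08% of the promoters with a noncoding partner and 7.45% of those without a partner. A peak in MAK683 alone could arise only where DMSO had none, which was rare at pairs, so these shares are not alike. Such a peak was found at 4 pairs, and 19 pairs had no peak in either library. The counts were 81 and 175 with a noncoding partner, and 1147 and 4553 without a partner. All 165 pairs with start sites more than 500 bp apart had a peak in both libraries, and of 184 pairs within 100 bp 95.7% had one in DMSO and 94.6% in MAK683.

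At 19 pairs no peak was called in either library, and several of their genes are known from particular tissues. They included ABCG5/ABCG8, the sterol transporter of liver and gut, DMGDH/BHMT2 of choline and methionine metabolism, and DUOXA1/DUOX1, a maturation factor and its dual oxidase. The testis histone pair H2AC1/H2BC1, the olfactory receptors OR11A1/OR2H1 and the ion channels TRPM5/KCNQ1 were also among them. HSPA1L/HSPA1A, heat shock chaperones, was listed there too, but HSPA1A has a near-identical copy, and reads that fit both copies may not have been placed. These 19 pairs had a median CpG observed/expected ratio of 0.746, and 12 of them reached 0.6.

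A peak in 1 library only was found at 9 pairs, 5 in DMSO and 4 in MAK683. The tallest found in DMSO alone were at COG4/SF3B3 (Golgi tethering and splicing) with a pileup of 19 tags, LSM7/SPPL2B (RNA decay and an intramembrane protease) with 16, NPLOC4/TSPAN10 (a p97 cofactor and a tetraspanin) with 11, and the histone pair H2BC13/H2AC13 with 10. The pileup is the number of extended tags stacked at the highest point of a peak, the summit. In MAK683 alone they were at ENSG00000285868/NIPAL4 with 24 tags, DUOX2/DUOXA2 (the second dual oxidase and its maturation factor) with 14, C11orf21/TSPAN32 with 10 and ENSG00000267618/FNDC8 with 9. The 9 peaks ran from 8 to 24 tags. The lowest pileup called in either library was 6 tags, and a site that was not called is not the same as a site with 0 tags. At 3 of these 4 sites the MAK683 summit was 645 bp or more from the nearer start site, with 1241 bp at NIPAL4 and 1118 bp at DUOX2/DUOXA2, and at FNDC8 it was 261 bp away.

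Peaks at pairs were taller and wider than the median peak of the genome, as were those at other coding promoters with or without a divergent gene. Height is given as pileup per 1000000 kept tags (RPM). The median height of the peaks in the windows was 2.41 RPM in DMSO and 1.59 RPM in MAK683, against 0.663 and 0.548 RPM over all peaks of each library. Their median length was 1856 and 1427 bp, against 433 and 392 bp. Taken over promoters with a peak in both libraries, the tallest peak had a median length of 1874 bp at pairs and 1841 bp at promoters with a noncoding partner in DMSO, and of 1477 and 1568 bp in MAK683. The heights of these sets were also near each other, with 2.44 and 2.17 RPM in DMSO and 1.64 and 1.59 RPM in MAK683. Promoters without a partner had 1.87 RPM and 1644 bp in DMSO, and 1.31 RPM and 1398 bp in MAK683. In DMSO the pairs held 0.0355% of peaks under 0.5 RPM and 12.9% of the 1584 peaks of 3 RPM or more, while promoters without a partner went from 2.08% to 47.2%. In MAK683 the share of the pairs was 10.5% from 2 to 3 RPM and 6.67% of the 135 peaks of 3 RPM or more.

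At the 924 pairs with a peak in both libraries the tallest peak had a median height of 2.44 RPM in DMSO (95% interval of the median 2.35 to 2.47) and 1.64 RPM in MAK683 (1.59 to 1.70). On the log2 scale MAK683 over DMSO had a median of -0.55 (-0.57 to -0.52). It was -0.50 (-0.52 to -0.47) at promoters with a noncoding partner and -0.46 (-0.48 to -0.46) at promoters without a partner. The peak was lower in MAK683 at 901 of the 924 pairs (97.5%) and higher at 23, whereas 85.8% of promoters without a partner were lower. The gap varied with height. Promoters without a partner were lower at 63.8% up to a mean height of 1 RPM (n = 1707) and at 98.8% above 3 RPM. The pairs had 93.3% (n = 30) and 96.5% there. The lower height in MAK683 was shared by the library as a whole, since the 57983 regions of any kind with peaks in DMSO and MAK683 had a median log2 ratio of -0.33. With that shift taken out, 79.7% of pairs were lower and the median was -0.22. MAK683 also had more peaks, of lower median height, than DMSO, and with 1 library each an effect of treatment and a difference in how sharply the libraries were enriched cannot be told apart.

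**Figure D1:**
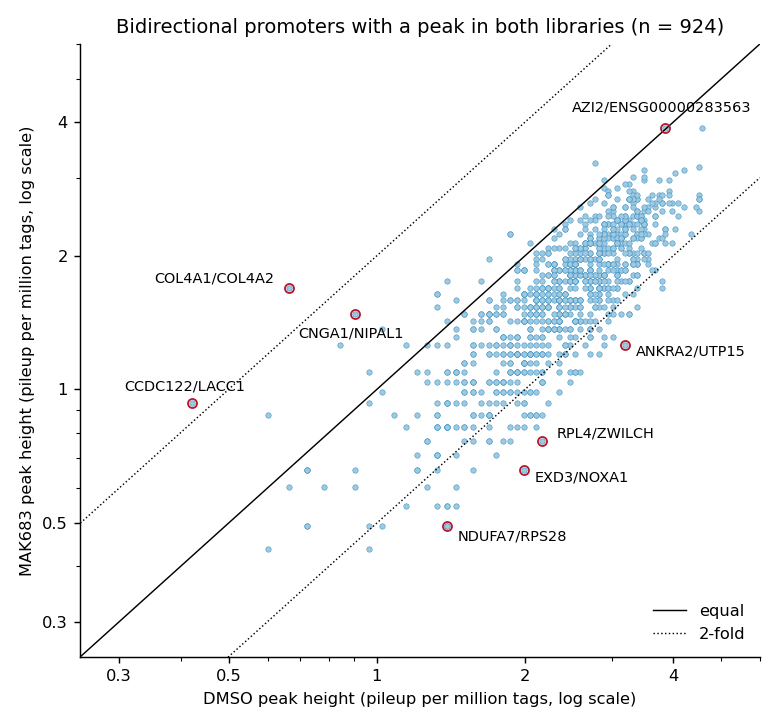
Peak height at the 924 bidirectional promoters with a peak in both libraries, DMSO on the x axis and MAK683 on the y axis, in RPM on log scales; 1 point is 1 gene pair. The solid line marks equal heights and the dotted lines a 2-fold difference; 901 points lie below the solid line, and COL4A1/COL4A2 and CCDC122/LACC1 are the 2 points above the upper dotted line.

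At least 2-fold higher peaks after MAK683 were found at 2 of the 924 pairs (0.217%), where 1.23% of all coding promoters with both peaks passed this fold. At least 2-fold lower peaks were found at 75 pairs (8.12%), where 6.74% of all coding promoters did. Judged pair by pair, the counting interval of the log2 ratio lay below 0 at 299 pairs (32.4%) and above 0 at 1 pair, which was COL4A1/COL4A2. Over all 11981 coding promoters it lay below 0 at 2586 (21.6%) and above 0 at 129. Taller peaks have narrower counting intervals, and the pairs were taller, so these shares are not strictly comparable.

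COL4A1 and COL4A2 encode the chains of the ubiquitous collagen IV network of basement membranes and are the textbook case of a shared collagen promoter. The DMSO peak reached 11 tags (0.663 RPM, 95% exact interval 0.331 to 1.19) and the MAK683 peak 31 tags (1.70 RPM, 1.15 to 2.41). The log2 ratio was 1.36 (0.36 to 2.35), higher than at 99.6% of coding promoters with both peaks. The 2 peaks also differed in extent. In DMSO the peak, 781 bp long at chr13:110959539-110960319, began between the start sites and had its summit 618 bp inside COL4A2, past the edge of the searched window. In MAK683 it was 3599 bp long at chr13:110958666-110962264, covered both start sites and had its summit 49 bp from the COL4A2 start.

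COL4A4 and COL4A3, the collagen IV chains of the glomerular basement membrane, make up a second head-to-head collagen pair. Their peak held 17 tags in DMSO (1.02 RPM, 0.597 to 1.64) and 25 in MAK683 (1.37 RPM, 0.886 to 2.02), a log2 ratio of 0.42 whose interval of -0.47 to 1.31 includes 0. It lengthened from 1281 to 2281 bp and covered both start sites in each library.

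The other large rises were at low peaks. CCDC122/LACC1, whose second gene encodes a purine enzyme of macrophages, had 7 tags in DMSO and 17 in MAK683, a log2 ratio of 1.14 (-0.13 to 2.41). CNGA1/NIPAL1, a channel of rod photoreceptors and a magnesium transporter, had 15 and 27 tags (0.71, -0.20 to 1.62). SEPTIN10/SOWAHC, a cytoskeletal septin and an ankyrin repeat protein, had 14 and 23 tags (0.58, -0.38 to 1.54), and PNMA2/DPYSL2, the latter a protein of axon growth, had 10 and 16 (0.54, -0.60 to 1.68). None of these 4 intervals excluded 0. All 4 peaks lengthened in MAK683, from 289 to 1220 bp at CCDC122/LACC1, 632 to 1519 bp at CNGA1/NIPAL1, 635 to 1495 bp at SEPTIN10/SOWAHC and 773 to 1744 bp at PNMA2/DPYSL2. This went against the pairs as a group, whose peaks were shorter in MAK683. The 4 were picked for a rise in height, however, and whether their length rose apart from height was not tested. The imprinted pair SGCE/PEG10, an epsilon sarcoglycan and a retrotransposon-derived gene, had 23 and 32 tags (log2 ratio 0.34). It and the 16 pairs with smaller positive ratios had 16 to 71 tags in every library, and 4 of them are 2 loci that were each listed as 2 pairs with the same peaks. The 23 pairs with a higher peak had a median DMSO height of 1.39 RPM against 2.47 RPM for the 901 with a lower peak, with similar median distances between start sites (237 and 235 bp). The DMSO height is part of the ratio by which these pairs were sorted, so some of its difference is built in.

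The largest falls included 2 pairs with a ribosomal protein gene. EXD3/NOXA1, an exonuclease-like gene and an NADPH oxidase activator, went from 33 to 12 tags (1.99 to 0.657 RPM), a log2 ratio of -1.60 (-2.55 to -0.64). RPL4/ZWILCH, a large-subunit ribosomal protein and a kinetochore protein, went from 36 to 14 (-1.50, -2.39 to -0.61). NDUFA7/RPS28, a respiratory complex I subunit and a small-subunit ribosomal protein, went from 23 to 9 (-1.49, -2.60 to -0.38). RECQL5/SAP30BP, a DNA helicase and a splicing-linked protein, went from 24 to 10 tags (-1.40, -2.47 to -0.34). ZMYND12/PPCS, the second an enzyme of coenzyme A synthesis, went from 35 to 15 (-1.36, -2.23 to -0.49), and ANKRA2/UTP15, the second a ribosome biogenesis factor, from 53 to 23 (-1.34, -2.05 to -0.64). All 6 intervals lay below 0, but the pairs were picked as the largest falls, so this follows largely from the choice. The intervals of NDUFA7/RPS28, RECQL5/SAP30BP and ZMYND12/PPCS included the median of all pairs, -0.55, and the others lay below that median. The intervals of the 6 pairs overlapped each other, so their order is not resolved. Their peaks still stood in MAK683, at 9 to 23 tags against a lowest call of 6.

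The tallest pairs had ratios on both sides of the median of all pairs. NUDCD1/ENY2, the second a subunit shared by the SAGA and TREX-2 complexes, had 76 tags in DMSO and 71 in MAK683 (-0.24, -0.70 to 0.23). AZI2/ENSG00000283563, the first an adaptor of TBK1 signaling, had 64 and 71 (0.01, -0.48 to 0.50). PDCD10/SERPINI1, a vascular junction protein and neuroserpin, had 75 and 58 (-0.51, with an interval that ended just below 0). CEP170/SDCCAG8, both centrosomal proteins, had 70 and 57 (-0.43, -0.94 to 0.07), and ORMDL1/PMS1, a regulator of sphingolipid synthesis and a mismatch repair protein, had 75 and 50 (-0.72, -1.24 to -0.21). BOLA2-SMG1P6/SLX1B had 75 and 49 tags (-0.75, -1.27 to -0.23), but SLX1B lies in a duplicated region with a near-identical copy, so how its reads were placed is uncertain.

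A list of 25 gene pairs known for a shared or bidirectional promoter was looked up, and 22 were found by the rule. Among those not found, the genes of TRMT2A/RANBP1 overlap by 1122 bp in this annotation, and the start sites of UNG/ALKBH2 lie 4125 bp apart. Of the 22 pairs, 20 had a lower peak in MAK683, and the 2 higher ones were the collagen IV pairs. Their median log2 ratio was -0.52, close to that of all pairs. The interval lay below 0 at 7 of the 22, near the 32.4% of all pairs.

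Among DNA repair pairs, NPAT/ATM, a coactivator of histone genes and the DNA damage kinase, had 56 tags in DMSO and 50 in MAK683 (-0.30, -0.85 to 0.25). ZAR1L/BRCA2, an oocyte protein and the mediator of homologous recombination, had 54 and 39 (-0.61, -1.20 to -0.01). PRKDC/MCM4, the end-joining kinase and a subunit of the replicative helicase, had 40 and 42 tags and a log2 ratio of -0.07 (-0.69 to 0.56), the smallest change in this list. RECQL/GOLT1B, a helicase and a Golgi protein, had 52 and 40 (-0.52, -1.11 to 0.08).

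Among metabolic and mitochondrial pairs, PPAT/PAICS of purine synthesis had 65 and 48 tags (-0.58, -1.11 to -0.04). HSPD1/HSPE1, the mitochondrial chaperonin and its co-chaperonin, had 56 and 49 (-0.33, -0.88 to 0.22). SARS2/MRPS12, a mitochondrial tRNA synthetase and ribosomal protein, had 41 and 29 (-0.64, -1.32 to 0.05). The ETS factor GABPA and its partner ATP5PF, an ATP synthase subunit, had 42 and 32 (-0.53, -1.19 to 0.13). SURF1/SURF2 had 34 and 20 tags (-0.90, -1.70 to -0.11), the largest fall of the list, but its DMSO peak was 6092 bp long with the summit 4405 bp from the nearer start site, so the 2 heights are not from the same place. ZBTB8OS/RBBP4, whose plus-strand gene encodes a histone-binding subunit of PRC2 itself, had 43 and 28 (-0.76, -1.44 to -0.07). TK1/AFMID, thymidine kinase and a tryptophan catabolic enzyme, had 28 and 27 (-0.19, -0.95 to 0.57). The antigen presentation pair TAP1/PSMB9 had 38 and 30 (-0.48, -1.17 to 0.21). PARP9/DTX3L, SIRT3/PSMD13, ACACA/TADA2A and SKA2/PRR11, also on the list, had log2 ratios of -0.74 to -0.47.

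**Figure D2:**
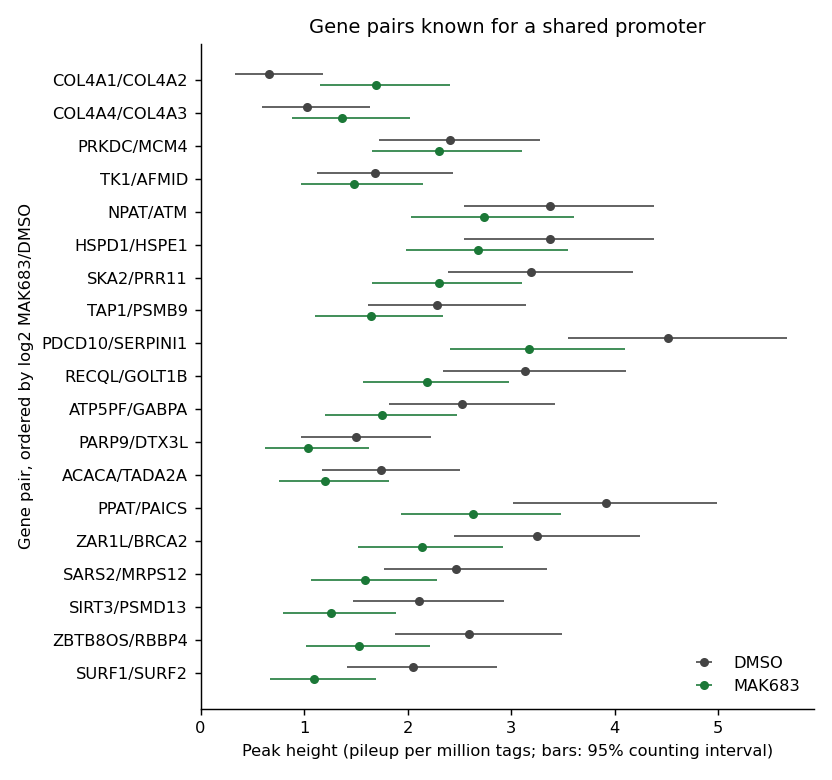
Peak height of 19 of the 22 gene pairs known for a shared promoter in DMSO (grey) and MAK683 (green), in RPM, with 95% exact counting intervals as bars; pairs are ordered by their log2 ratio. The 2 collagen IV pairs at the top are the ones whose MAK683 point lies to the right of the DMSO point.

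Summits lay mostly between the start sites. In DMSO the summit of the tallest peak was between them at 689 of 929 pairs (74.2%, 71.3 to 76.9%) and in MAK683 at 678 of 928 (73.1%, 70.1 to 75.8%). That stretch took up 6.36% of the searched window at pairs within 100 bp and 40.4% at pairs 500 to 1000 bp apart. The share of summits rose with distance, from 57.4% of pairs within 100 bp to 85.5% of pairs 500 to 1000 bp apart in DMSO, and from 58.6% to 82.4% in MAK683. The remaining summits fell about equally on both sides, 122 in the minus-strand gene and 118 in the plus-strand gene in DMSO. The median distance from summit to nearer start site was 53 bp in DMSO and 55 bp in MAK683. At other coding promoters summits also lay mostly upstream of the start site, so this placement is not particular to pairs. With a noncoding partner 80% did so in DMSO and 78% in MAK683, and without a partner 69% and 67%.

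**Figure D3:**
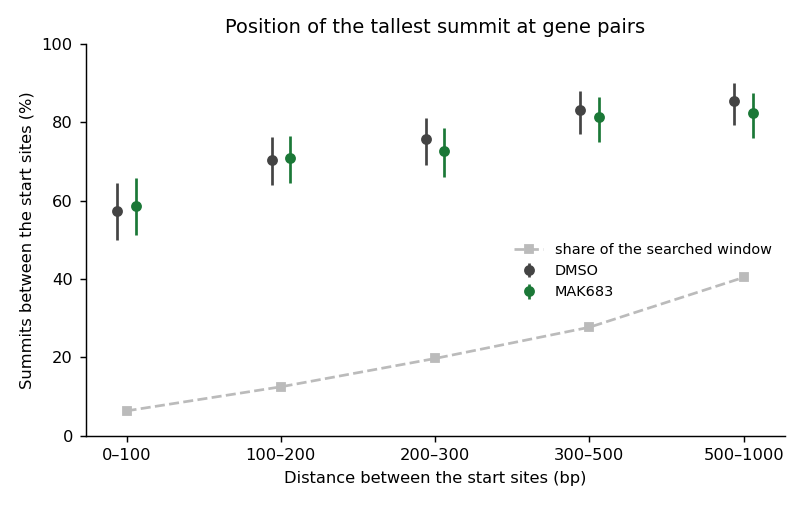
Share of pairs whose tallest summit lay between the start sites, by distance between the start sites in bp, in DMSO (grey) and MAK683 (green) with 95% Wilson intervals; squares give the share of the searched window that lies between the start sites. The share rose from 57.4% to 85.5% in DMSO and stayed above that of the window at every distance. Summits at other coding promoters, not drawn here, also lay mostly upstream of the start site.

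A single peak usually spanned both starts. The tallest peak covered both start sites at 898 pairs in DMSO (96.7% of those with a peak) and at 879 in MAK683 (94.7%). At pairs more than 500 bp apart this fell to 89.1% and 83.6%. More than 1 peak was called in the window at 3.55% of pairs in DMSO and 7.54% in MAK683. The tallest peaks of the 2 libraries overlapped at all 924 pairs, and their summits were a median of 37 bp apart, within 50 bp at 515 pairs (55.7%). A peak is called as 1 unit over both genes, so these values do not say which gene of a pair the accessibility belongs to.

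The ratio of the libraries varied with the height of the peak. Among pairs with a mean height of at most 1 RPM the median log2 ratio was -0.67 (-1.06 to -0.46, n = 30), and between 1 and 1.5 RPM it was -0.70 (-0.77 to -0.60, n = 140). It was -0.48 (-0.58 to -0.43, n = 57) above 3 RPM. Promoters without a partner had their smallest change at low heights, with -0.23 (-0.25 to -0.14) up to 1 RPM, -0.46 between 1 and 1.5 RPM and -0.45 above 3 RPM. Between 1.5 and 3 RPM the medians of the sets were near each other, -0.58, -0.53 and -0.49 for the pairs and -0.52, -0.50 and -0.50 for promoters without a partner. Low peaks at pairs had lower ratios than low peaks at other promoters, and at tall peaks the sets had similar ratios. The same held among promoters with a CpG observed/expected ratio of at least 0.6, with -0.88 (-1.06 to -0.46, n = 25) for pairs and -0.23 (-0.25 to -0.14) for promoters without a partner up to 1 RPM. These intervals describe promoters within 1 library per treatment, and no test of the difference between treatments stands behind them.

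**Figure D4:**
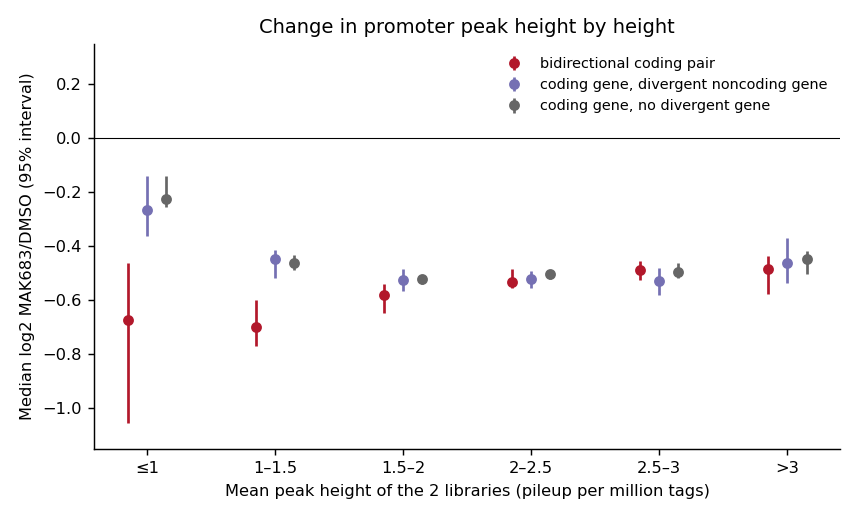
Median log2 of MAK683 over DMSO peak height, with 95% intervals of the median over promoters, by mean height of the 2 libraries in RPM. Red points are bidirectional coding pairs, purple points coding genes with a divergent noncoding gene and grey points coding genes with no divergent gene; up to 1 RPM the pairs sit at -0.67 and the grey points at -0.23, and above 3 RPM they sit at -0.48 and -0.45.

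The ratio showed no steady trend with the distance between the start sites. The medians were -0.54 within 100 bp, -0.63 from 100 to 200 bp, -0.50 from 200 to 300 bp, -0.53 from 300 to 500 bp and -0.55 from 500 to 1000 bp. By chromosome, the median of the pairs was below that of promoters without a partner on 18 of 22 chromosomes. On the gene-dense chromosomes 17, 19 and 22 the medians were -0.60 (-0.68 to -0.55) and -0.53, and on the other autosomes -0.53 (-0.57 to -0.51) and -0.45. Sequence moved with the ratio as well. Pairs with a GC box had a median of -0.52 (-0.54 to -0.49, n = 681) and pairs without one -0.65 (n = 243), and in the lowest quartile of GC content the pairs had -0.62 against -0.50 in the highest. Over the same quartiles, promoters with a noncoding partner went from -0.54 to -0.42 and those without a partner from -0.52 to -0.41. Pairs with and without an ETS motif had medians of -0.56 and -0.54, and promoters without a partner -0.55 and -0.44. The part of base composition in the difference between libraries was not tested.

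Bidirectional arrangement was uneven over gene groups set up by symbol. Of 139 genes of DNA replication and repair 42 were in pairs (30.2%), of 252 genes of mitochondrial proteins 78 (31.0%) and of 67 replication-dependent histone genes 22 (32.8%). At the other end were 5 of 231 developmental transcription factor genes (2.16%) and 2 of 322 genes of ion channels and neurons (0.621%). Over all coding genes on chromosomes 1 to 22, 1834 of 19229 were in pairs. Ribosomal protein genes (13 of 80, 16.3%) were above that share and zinc finger genes (42 of 593, 7.08%) below it.

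The 14 pairs with a cytosolic ribosomal protein gene had the lowest median log2 ratio of the groups, -0.93 (-1.49 to -0.64), and all 14 were lower in MAK683, 4 of them at least 2-fold, beside 97.5% and 8.12% of all pairs. The 65 ribosomal protein genes at other promoters had a median of -0.69. Besides RPL4 and RPS28, RPL35/ARPC5L went from 52 to 27 tags (-1.08) and VPS52/RPS18 from 32 to 18 (-0.97). CLHC1/RPS27A was the exception, with 58 and 57 tags (-0.16). RPS28 is counted in 2 pairs that share 1 peak, since ENSG00000167774 starts beside NDUFA7, so the group holds 13 separate peaks. Other groups also count some peaks under 2 pairs, such as HSPD1/HSPE1 and HSPD1/HSPE1-MOB4 or AK6/RAD17 and TAF9/RAD17. Their counts and intervals are therefore not all over separate peaks.

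The 77 pairs with a mitochondrial protein gene had a median of -0.75 (-0.79 to -0.65), below the -0.58 of the 167 such genes at other promoters. Of these pairs 73 of 77 were lower, 10 at least 2-fold, and 4 were higher, beside 97.5% lower and 8.12% at least 2-fold lower over all pairs. Among the falls were YIPF2/TIMM29, an import factor of the inner membrane, from 29 to 13 tags (-1.30), MRPL27/EME1, a mitochondrial ribosomal protein and a nuclease subunit, from 22 to 10 (-1.28), NDUFS1/EEF1B2, a complex I subunit and a translation elongation factor, from 63 to 31 (-1.16), and CCDC127/SDHA, with the catalytic subunit of complex II, from 36 to 19 (-1.06). The higher ones were ARFIP2/TIMM10B with 31 and 41 tags (0.27), TEPSIN/NDUFAF8 with 22 and 28 (0.21), ATP5PD/KCTD2 with 23 and 26 (0.04) and FBXO15/TIMM21 with 48 and 54 (0.03).

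All 43 pairs with a DNA replication or repair gene were lower in MAK683, beside 97.5% of all pairs. Their median was -0.59 (-0.75 to -0.48) against -0.54 at other promoters of the group. They ranged from RECQL5/SAP30BP at 24 and 10 tags (-1.40), with XPC/LSM3, the damage sensor of nucleotide excision repair, at 56 and 28 (-1.14), to ORC4/MBD5, an origin recognition subunit, at 48 and 52 (-0.02). TMEM258/FEN1, the flap endonuclease, had 55 and 30 tags (-1.01), and MCM7/AP4M1, a helicase subunit, 44 and 42 (-0.21).

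The 34 cell cycle pairs had a median of -0.48 (-0.72 to -0.35) and the 68 pairs of RNA polymerase, splicing and tRNA genes -0.53 (-0.64 to -0.46). Every pair of both groups was lower, beside 97.5% of all pairs. The cell cycle group was set up by symbol and holds genes such as CDC42SE1, CDC40, KIF1C and CCNK, whose part in the cell cycle was not checked. The 27 proteasome and chaperone pairs had -0.51 (-0.78 to -0.39), again all lower. In these 3 groups the members at other promoters had lower medians than the pairs, -0.52 for the cell cycle, -0.65 for RNA polymerase, splicing and tRNA, and -0.58 for proteasome and chaperones. Only the value for RNA polymerase, splicing and tRNA lay outside the interval of the pairs. Chromatin modifier genes were in 17 pairs, all lower, with a median of -0.59 (-0.76 to -0.45) against -0.53 at other promoters, which lies inside that interval. GTF3C1/KATNIP and PIAS2/KATNAL2 came into this group by symbol alone, through genes related to the microtubule-severing katanin. The 17 ranged from CWC15/KDM4D, a histone demethylase, at 46 and 28 tags (-0.85) to SETD3/CCNK, with a methyltransferase of actin, at 55 and 55 (-0.14), where equal tags give a negative ratio because the MAK683 library was deeper.

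The histone genes were paired with each other. All 11 histone pairs joined 2 histone genes, 10 of them an H2A and an H2B gene, which is the usual arrangement of these clusters. The 9 with a peak in both libraries were all lower in MAK683, beside 97.5% of all pairs. Their median was -0.72 (-0.89 to -0.41), the same as that of the 38 histone genes at other promoters. H2AC14/H2BC14 went from 35 to 20 tags (-0.95) and H2BC12/H2AC12 from 59 to 35 (-0.89), while H2BC4/H2AC6 had 47 and 39 (-0.41). Histone genes of 1 class are near copies of each other, so reads in their coding parts may be placed in the wrong copy.

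Zinc finger genes were in 35 pairs, and 33 of the 34 with both peaks were lower (median -0.64, interval -0.77 to -0.33, against -0.52 at other promoters). ZBTB8OS came into this group by symbol alone. Solute carrier pairs had a median of -0.52 (interval -0.77 to -0.39, against -0.45 at other promoters), with 17 of 18 lower. The 7 pairs of the interferon and antigen presentation group were all lower, with a median of -0.53 (-1.07 to -0.34) against -0.41 at other promoters. DDX24/IFI27L1 fell most, at 42 and 22 tags (-1.07), and PATL2/B2M, with the light chain of class I molecules, least at 39 and 34 (-0.34). Each value at other promoters in these groups lay inside the interval of the pairs. The shares lower stand beside 97.5% over all pairs.

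**Figure D5:**
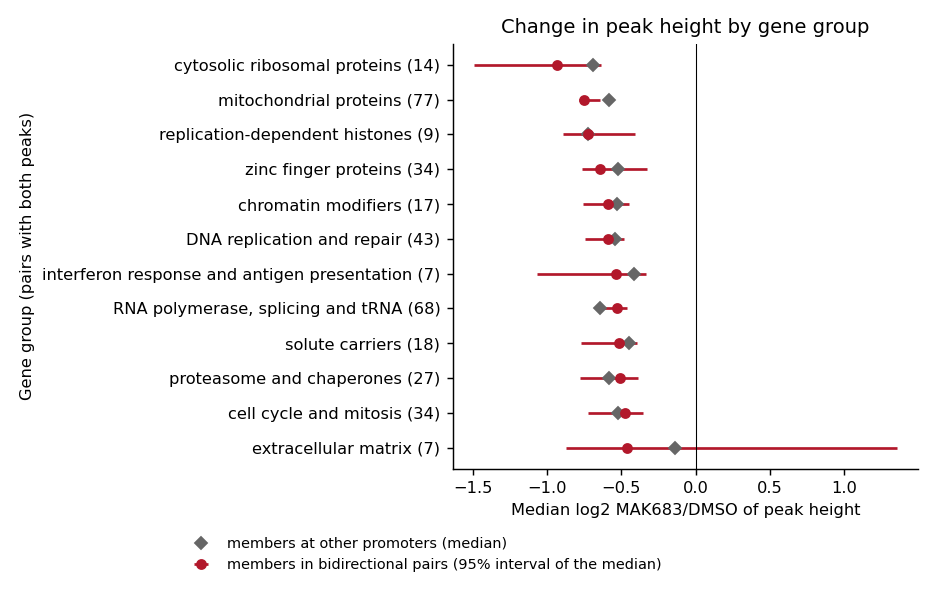
Median log2 of MAK683 over DMSO peak height for gene groups with at least 6 pairs, red for members in bidirectional pairs with 95% intervals of the median and grey diamonds for members at other promoters; the number of pairs with both peaks is in brackets. Cytosolic ribosomal protein pairs are lowest at -0.93, and the interval of the extracellular matrix group runs from -0.88 to 1.36.

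The groups nearest to PRC2 biology had few members in pairs. The extracellular matrix group had 7 pairs with a median of -0.46, of which the collagen IV pairs were the higher 2, and its 93 members at other promoters had a median of -0.14. ITGB3BP and ITGB1BP1 came into this group by symbol alone and encode a centromere protein and an integrin-binding adaptor. Of the developmental group, FOXL2/FOXL2NB, with the ovarian forkhead factor, had 12 and 9 tags (-0.55), FOXA1/TTC6, with the endodermal pioneer factor, 28 and 29 (-0.09), and FOXM1/RHNO1, with the mitotic forkhead factor, 20 and 16 (-0.46). SRPRA/FOXRED1 had 45 and 33 (-0.59), but FOXRED1 is a mitochondrial oxidoreductase. A list of 29 genes was taken from those that the study names as PRC2 targets or as derepressed, and it does not hold all of them. In it 2 genes were in bidirectional pairs, COL4A1 and COL4A2. COL4A4, which the study also names, is outside the list, and its pair is given above. The 16 of these genes at other promoters with peaks in both libraries had a median log2 ratio of 0.46. The study chose these genes on these cells, so its direction is not independent evidence.

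Just inside the distance limit, SMIM7/TMEM38A (995 bp apart) had 37 and 28 tags (-0.54), HNRNPA2B1/CBX3 (999 bp) 44 and 43 (-0.17) and ATP6V1G2/NFKBIL1 (1000 bp) 39 and 30 (-0.52). Just outside, ABHD14B/ABHD14A (1015 bp) had 41 and 23 (-0.97) and USH1G/OTOP2 (1018 bp) 13 and 10 (-0.52). Chromosome X, outside the rule, held 26 such pairs, of which 20 had a peak in both libraries, and all 20 were lower in MAK683 with a median of -0.54.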

How the data were processed

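ATAC-seq libraries of G401 cells treated with DMSO or MAK683 were compared, 1 library per treatment. The authors trimmed reads with Trim Galore and aligned them to hg19 with Bowtie2. The deposited peak lists were called per library with MACS 2.1.1.20160309, per the file headers, with a tag shift of -100 bp, an extension of 200 bp, no local lambda, a q cutoff of 0.05 and 1 tag kept per position (the labels and methods name other MACS versions). The shift and extension centre each tag on the Tn5 cut. The deposited pileup is a signal, the extended tags stacked at the summit. The deposited fold enrichment is a ratio over the expected signal, and the deposited p-values and q-values are given as -log10. Trimming and alignment settings decide which repeated copies receive reads.

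Heights were scaled to 1000000 kept tags (1 tag is 0.0602 RPM in DMSO and 0.0547 RPM in MAK683, and the lowest peak 0.361 and 0.328 RPM). A pair or promoter took the tallest peak with at least 1 bp in its window. Unpaired promoters used a window of 1234 bp, the median of the pairs. A change was called at 2-fold. Shares have Wilson intervals, heights exact Clopper-Pearson intervals, log2 ratios Poisson intervals from both pileups and medians order-statistic intervals, all at 95% and for counting error or the spread over promoters. Without replicates no test between treatments was run. Some listed pairs are not reported here. No peak ran past a chromosome end of GRCh37. Pairs named are the listed known pairs, the 6 tallest, the 6 largest rises and 6 largest falls with at least 20 summed tags, the 4 tallest seen in 1 library for each library, and members of gene groups at the ends of each group's range. Members and lists were chosen with earlier results of these data known. The code (Python 3.11.15, numpy 2.4.6, pandas 2.3.3, scipy 1.17.1, matplotlib 3.10.9) was tested on simulated peaks. Alternatives were stricter and equal-sized peak lists, start sites at most 300 bp apart, windows widened by 0 or 1000 bp, no readthrough genes, fold enrichment or raw tags as height, centring on all shared regions, a floor for missing peaks and a minimum height. Selection by CpG ratio and by summit position was chosen after seeing the data.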

Additional observations from a re-analysis of the deposited data

How the results depend on the processing

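No paired analysis was possible because each treatment has 1 library. The median log2 ratio at pairs stayed below 0 under each alternative tried. It was -0.47 with fold enrichment as height, -0.41 with raw tags and -0.22 when centred on all shared regions, with 95.9%, 91.6% and 79.7% of pairs lower in MAK683 and 44, 43 and 9 pairs at least 2-fold lower instead of 75. The centring accounts for its own shift by construction. With fold enrichment the median heights were 18.6 in DMSO and 13.2 in MAK683, in fold rather than RPM. Peaks with -log10 q of at least 10 were found at 96.0% of pairs in DMSO and 90.9% in MAK683, with 0 pairs at least 2-fold higher and 48 lower. The count of pairs at least 2-fold higher, 2 as reported, was 1 with unwidened windows, 1 without pairs under 1 RPM on average, 1 when both summits had to lie inside the window (which leaves out COL4A1/COL4A2) and 4 with a missing peak set to the floor of 0.361 RPM. The median of pairs minus that of promoters without a partner, -0.09 as reported, was -0.13 with that floor and -0.042 when peaks under 1 RPM on average were left out. With start sites at most 300 bp apart, 68.3% of summits in DMSO and 67.9% in MAK683 lay between them. The other 77 of 100 values stayed within their intervals or within 1.5 times the reported count, as did all 373 values of named pairs. Under other peak lists, distances and windows, however, a named pair kept the same peaks, so its ratio could not move. A pair that lost a peak gave no value. With -log10 q of at least 10 this left out COL4A1/COL4A2 and most of the largest rises and falls.

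The summit of the tallest peak lay outside the window at 33 of 924 pairs in DMSO and 23 in MAK683. Pileups of 7 to 76 tags at the named pairs limit the ratios, and a 2-fold change at 10 tags is within counting error.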
